A study of Mus musculus with 12 samples.

Results

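Amino acid transporter genes carry nutrients across the plasma membrane and out of lysosomes, and their transcripts are followed here through LPS treatment and loss of Nfkbiz in mouse peritoneal macrophages. The members are the genes of 7 solute carrier families whose symbols start with Slc1a, Slc3a, Slc6a, Slc7a, Slc36a, Slc38a or Slc43a and a number. The rule used symbols alone and no measured value, and it found 66 probe sets for 64 genes, out of 19938 genes with a probe set of their own. Slc38a1 and Slc38a9 had more than 1 probe set, and the one with the highest mean was kept for each. Slc7a6os and Slc6a19os meet the rule by name only, since they are opposite-strand neighbours of transporter genes and not transporters. Members such as Slc43a3, a nucleobase carrier, and Slc6a8, the creatine carrier, take solutes other than amino acids.

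Peritoneal macrophages were flushed from female mice, plated and cultured without any sort or gate in the labels. The 4 groups were Nfkbiz-/- cells given LPS, Nfkbiz-/- cells left untreated, wild-type C57Bl/6 cells given LPS and wild-type C57Bl/6 cells left untreated, with 3 arrays each and 12 in all. LPS, the bacterial cell-wall component sensed by TLR4, was given at 1 µg/ml for 4 h. Nfkbiz encodes IκBζ, a nuclear IκB protein that LPS induces, and the series title names it as a regulator of the chemokine gene Ccl2. The labels give no age, no strain background of the Nfkbiz-/- mice beyond the genotype and no description of the deleted part. Nothing in them ties each sample of a group to its own mouse, so the p-values stand for the spread among these samples alone, and that spread may be technical.

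Amino acid transporters work in a few recurring forms. The Slc7 light chains of the exchanger group sit at the membrane only when joined to an Slc3 heavy chain, for most of them Slc3a2 (CD98). They swap 1 amino acid for another, whereas the cationic Slc7 carriers work alone. Slc38 and Slc1 carriers use the sodium gradient for glutamine, alanine and glutamate, Slc6 carriers use sodium and chloride for glycine, taurine and similar solutes, and Slc36 and some Slc38 members move amino acids across the lysosomal membrane. In macrophages, arginine entry feeds nitric oxide synthase, cystine entry through Slc7a11 feeds glutathione synthesis, and lysosomal amino acids are sensed by mTORC1.

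The 3 promoters printed here belong to the members that the results on cystine exchange, on the genotype difference and on lysosomal carriers turn on. Each is a RefSeq stretch from 250 bases before to 50 bases after an annotated start of the gene (GRCm38.p6), written 5′ to 3′ on the gene's strand, and RefSeq promoters were matched for 47 of the 64 members and 29 of the 40 expressed ones. Slc7a7 has 5 such windows in the table, and the one printed was chosen for its 2 matches, where another overlapping window has 1 and the other 3 have none. Capitals mark amino acid response element matches (TGATGNAAN, bound in general by ATF4-type factors) in the first pair, and in the last an E-box (TCACGTGA) that overlaps an antioxidant response element match (TGACNNNGC).
Slc7a11, chr3:50443564-50443863, minus strand: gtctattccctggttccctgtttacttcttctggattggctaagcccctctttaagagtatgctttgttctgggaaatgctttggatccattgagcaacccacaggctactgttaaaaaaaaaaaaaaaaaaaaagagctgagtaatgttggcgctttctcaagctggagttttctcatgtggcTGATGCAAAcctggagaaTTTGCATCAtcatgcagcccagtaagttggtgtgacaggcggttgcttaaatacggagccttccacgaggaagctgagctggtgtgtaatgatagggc
Slc7a7, chr14:54417895-54418194, minus strand: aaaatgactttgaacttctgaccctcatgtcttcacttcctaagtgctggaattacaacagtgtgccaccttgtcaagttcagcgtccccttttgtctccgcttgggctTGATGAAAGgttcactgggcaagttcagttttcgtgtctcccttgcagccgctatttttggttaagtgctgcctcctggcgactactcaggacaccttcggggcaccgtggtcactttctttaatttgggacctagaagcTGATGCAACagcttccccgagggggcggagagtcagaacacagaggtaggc
Slc36a1, chr11:55204090-55204389, plus strand: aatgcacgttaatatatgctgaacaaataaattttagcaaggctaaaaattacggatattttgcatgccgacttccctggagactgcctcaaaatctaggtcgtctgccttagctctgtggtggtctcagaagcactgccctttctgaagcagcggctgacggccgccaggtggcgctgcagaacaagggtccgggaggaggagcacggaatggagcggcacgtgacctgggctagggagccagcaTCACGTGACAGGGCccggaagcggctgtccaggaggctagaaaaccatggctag

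Searched on both strands, TGATGNAAN was present in 3.95% of the 32851 promoters of the table, that is in at least 1 promoter of 4.5% of genes, and in 3 of 29 expressed members with a promoter, Slc1a4, Slc7a11 and Slc7a7. TGACNNNGC was present in 12.4% of all promoters (14% of genes) and in 7 of the 29, which were Slc36a1, Slc38a2, Slc6a11, Slc6a13, Slc6a9, Slc7a1 and Slc7a6. A kappa-B pattern, GGGNNTTTC, was present in 4.36% of all promoters (5.06% of genes) and in 3 of the 29, Slc38a5, Slc6a12 and Slc6a13. The E-box TCACGTGA, which was searched after the values were seen, was present in 0.974% of all promoters (1.12% of genes) and in 1 of the 29. A match describes the letters in the window and is no evidence of binding. Counting the first base of the gene as 0, both Slc7a11 matches lie upstream, at -66 to -58 on the gene's strand and at -48 to -40 on the other strand.

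Nfkbiz, the targeted gene, was lower in knockout, with no overlap between genotypes in either treatment. With LPS, Nfkbiz read 1568, 1335 and 1634 on the knockout arrays, against 3371, 3786 and 3079 on the wild-type arrays (log2 difference -1.17, limma adjusted p = 7.23e-05). On the untreated arrays its values were 266.9, 285.6 and 274.4 for knockout, against 462.6, 430.7 and 406.3 for wild type (-0.65, adjusted p = 0.0401). The labels do not place its probe set inside or outside the deleted part, and the remaining knockout signal was higher on all 3 LPS arrays than on the untreated ones. Deposited intensities ran from 6.96 to 22642, with array medians from 110.4 to 118.7 and correlations of 0.984 to 0.994 between arrays of a group. The macrophage markers were all present (8 of 8 expressed), no NK cell or eosinophil marker was (0 of 5 for each), and B cell markers were present at low levels (6 of 6). Of T cell markers 2 of 6 were expressed, of mesothelial markers 3 of 6 and of fibroblast markers 4 of 6. Knockout replicate 2 stood apart in both treatments. Timd4, a marker of resident large peritoneal macrophages, read 719.3, 2608 and 1156 with LPS and 313.4, 1646 and 407 untreated in knockout, against 162.6 to 384.3 on the wild-type arrays. F5 of the same marker list was also highest on replicate 2 of both knockout groups (594.1 with LPS and 804.8 untreated). Gata6 and Icam2 went the other way with LPS, at 1570, 725.9 and 1240 and at 1742, 848.3 and 1863. Alox15 differed little among the knockout arrays of a treatment.

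To set expressed members apart from near-background ones, the level of 1194 olfactory and vomeronasal receptor genes, which macrophages are not known to transcribe, served as the background. A member counted as expressed when its mean log2 intensity over the 12 arrays exceeded the 95th percentile of those genes, an intensity of 96.7. By this rule 40 of 64 members were expressed and 24 were near background, beside 12413 of 19938 genes (62.3%) expressed in all. By the stricter 99th percentile (170.1), 24 members stood above. Expressed were 3 of 7 Slc1a, 1 of 2 Slc3a, 12 of 21 Slc6a, 10 of 16 Slc7a, 3 of 4 Slc36a, 9 of 11 Slc38a and 2 of 3 Slc43a members. Slc38a3 (97.0) and Slc6a11 (100.1) lay just inside the threshold, and Slc43a1 (89.0) and Slc6a2 (87.3) just outside it.

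Most expressed members that responded to LPS did so in the same direction in both genotypes. In knockout cells 12 of the 40 rose and 11 fell, and in wild-type cells 8 rose and 12 fell, where a member was called at a limma adjusted p under 0.05 over all 19938 genes. Among all expressed genes 23.3% rose and 35.9% fell in knockout cells, and 12.9% rose and 28% fell in wild-type cells. Over all tested genes the shares were 21.9% and 23.8% in knockout cells, and 9.53% and 18.5% in wild-type cells. The median log2 response of the 40 was 0.09 in knockout and 0.03 in wild type, against -0.07 and -0.05 over all expressed genes and 0.07 and 0.04 over all genes. In all, 19 members were called in both genotypes and all 19 had the same sign in both, 8 higher and 11 lower. Of these, 6 changed at least 2-fold in both, namely Slc1a2, Slc7a1 and Slc7a2, which rose, and Slc1a5, Slc36a1 and Slc43a2, which fell. How often all expressed genes called in both genotypes share a sign was not counted, so no agreement particular to these members is claimed. The 16 members called in neither genotype were Slc1a4, Slc36a2, Slc38a5, Slc43a3, Slc6a3, Slc6a4, Slc6a7, Slc6a9, Slc6a11, Slc6a12, Slc6a13, Slc6a17, Slc6a20a, Slc6a20b, Slc7a6os and Slc7a8. All values are of bulk RNA, in which fewer cells of a type and less RNA per cell cannot be told apart.

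**Figure D1:**
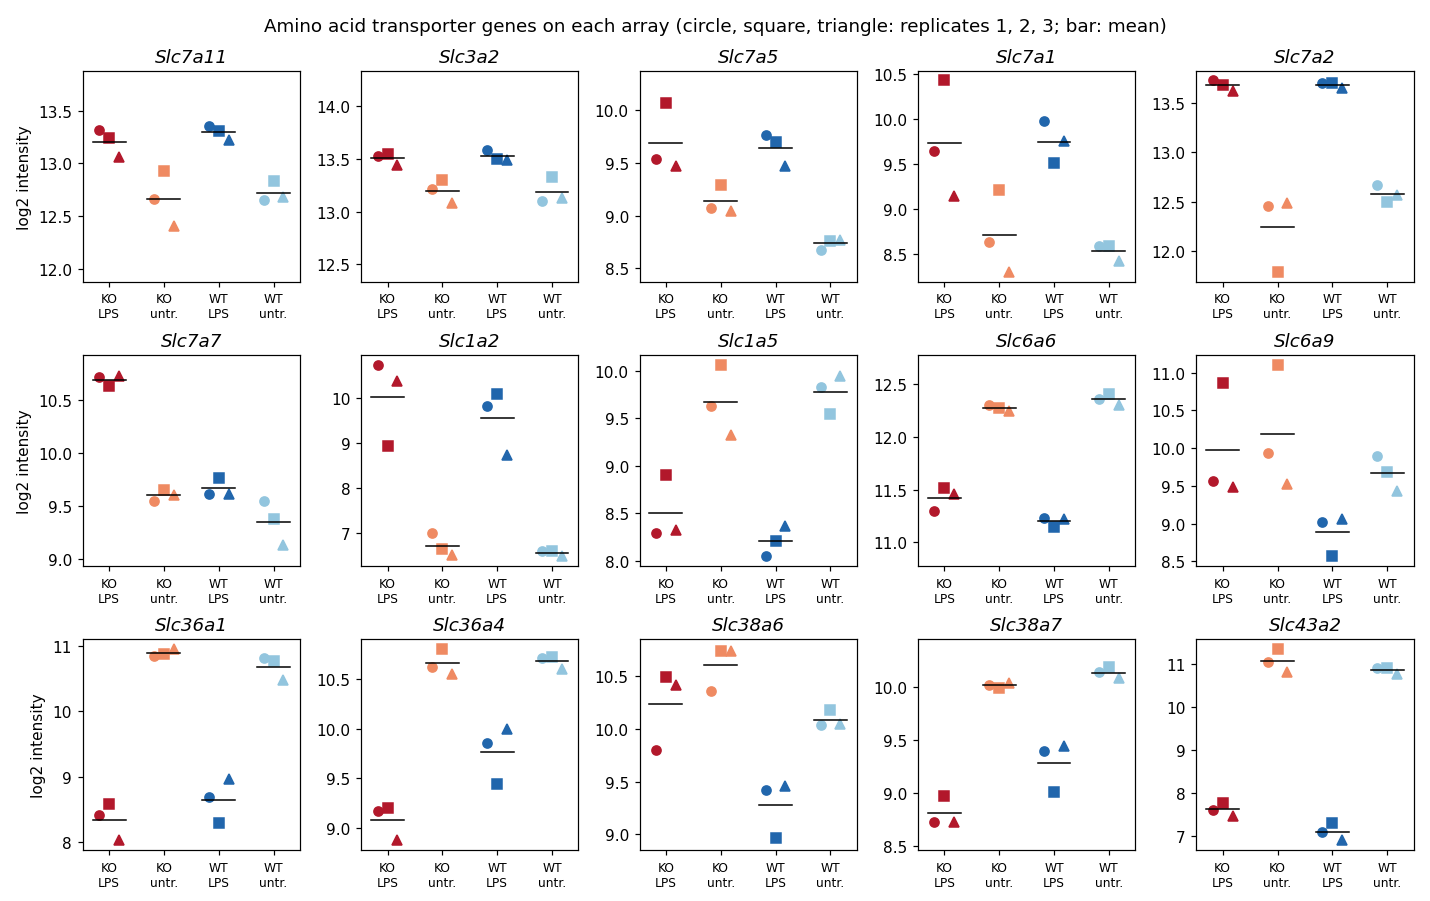
Deposited intensity of 15 members on all 12 arrays, on a log2 axis, with a panel per member, the groups from left to right being knockout with LPS, knockout untreated, wild type with LPS and wild type untreated, and 1 point per array. Slc43a2 and Slc36a1 lie lower on every LPS array than on any untreated array, Slc1a2 and Slc7a2 lie higher, and Slc7a7 lies highest on the 3 LPS-treated knockout arrays.

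The CD98 heavy chain rose in both genotypes, and of its 6 expressed light chains Slc7a5, Slc7a7 and Slc7a11 were called higher in both, Slc7a10 in knockout alone, Slc7a8 in neither, and Slc7a6 lower in both. Slc3a2, the heavy chain itself, read 11833, 11958 and 11158 with LPS and 9499, 10092 and 8694 untreated in knockout cells. In wild-type cells it read 12306, 11581 and 11478 with LPS and 8780, 10284 and 8942 untreated. Every LPS array exceeded every untreated array of its genotype, and the rise was small, at 0.31 on the log2 scale in knockout (SE 0.08, adjusted p = 0.0101) and 0.34 in wild type (SE 0.08, adjusted p = 0.0085). The knockout call was lost with quantile normalization (0.20, adjusted p = 0.0803) and with arrays centred on the median of olfactory and vomeronasal receptor genes (0.24, adjusted p = 0.0957), and the wild-type call with that centring (0.22, adjusted p = 0.149).

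Slc7a11, the light chain of the cystine-glutamate exchanger xCT that supplies cysteine for glutathione, rose by a similar amount in both genotypes. It read 10195, 9667 and 8564 with LPS and 6474, 7811 and 5421 untreated in knockout cells, and 10446, 10141 and 9566 with LPS and 6433, 7286 and 6560 untreated in wild-type cells. The groups did not overlap in either genotype. The rise was 0.54 (SE 0.12, adjusted p = 0.00345) in knockout and 0.57 (SE 0.12, adjusted p = 0.00359) in wild type, and knockout minus wild type with LPS was -0.09 (95% interval -0.35 to 0.17, adjusted p = 0.768).

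Slc7a5, LAT1, which brings in leucine and other large neutral amino acids, read 743.2, 1074 and 708.2 with LPS and 539.2, 627.5 and 528.9 untreated in knockout cells. In wild-type cells it read 870, 828.3 and 709.2 with LPS and 408.9, 433.7 and 437.3 untreated. The LPS arrays lay above the untreated arrays in both genotypes, by 0.55 in knockout (adjusted p = 0.00855) and 0.91 in wild type (adjusted p = 5.29e-04). The related light chain Slc7a8, LAT2, was not called (0.56 in knockout, adjusted p = 0.0577, and 0.36 in wild type, adjusted p = 0.267), though with the replicate number as a block among the knockout arrays the adjusted p in knockout was 0.0477. Slc7a6, the exchanger y+LAT2 that takes cationic and neutral amino acids, went the other way and fell in both genotypes, by 0.94 in knockout (adjusted p = 5.00e-04) and 0.53 in wild type (adjusted p = 0.025). The wild-type call on Slc7a6 was lost without LPS replicate 1 (-0.48) or 2 (-0.39), or without untreated replicate 1 (-0.49) or 2 (-0.51). The CD98 partner Slc7a10, an alanine-serine-cysteine exchanger best known from brain, was dim, with all 3 untreated knockout arrays under the background threshold. It was called in knockout alone (geometric mean at least 1.13-fold higher with LPS, adjusted p = 0.00177). That call was lost with arrays centred on the receptor genes' median (0.24, adjusted p = 0.125).

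Slc7a7 was the 1 member of the 64 whose LPS response was called as different between the genotypes. It encodes y+LAT1, the light chain that exports arginine and lysine in exchange for neutral amino acids and sodium, and its loss in humans causes lysinuric protein intolerance. It read 1684, 1593 and 1698 with LPS and 748, 804.6 and 777.9 untreated in knockout cells, against 784.2, 868.6 and 784.8 with LPS and 745.7, 663.3 and 560.6 untreated in wild-type cells. All 3 LPS-treated knockout arrays lay above every other array, and the LPS-treated wild-type arrays lay close to the untreated knockout arrays. The response was 1.09 in knockout (SE 0.10, adjusted p = 5.13e-06) and 0.32 in wild type (SE 0.10, adjusted p = 0.029), and their difference was 0.78 (SE 0.14, adjusted p = 0.0287). With LPS, knockout exceeded wild type by 1.03 (SE 0.10, adjusted p = 1.45e-04), and untreated the difference was 0.25 (adjusted p = 0.499). The call on the difference of responses was lost in 7 of 12 fits that left out 1 array, with values between 0.68 and 0.89 and adjusted p between 0.0165 and 0.089 over the 12. These 7 left out knockout LPS replicate 3 (0.76), knockout untreated replicate 1 (0.75) or 3 (0.78), wild-type LPS replicate 1 or 3 (0.75 each), or wild-type untreated replicate 1 (0.68) or 2 (0.77). The small wild-type rise lost its call without LPS replicate 1 (0.34) or 2 (0.27), or without untreated replicate 2 (0.33) or 3 (0.21), while the LPS-treated genotype difference was called in all 12. That 1 call stands beside 0.747% of all genes called for the difference of responses, and 5 of the 40 expressed members had an unadjusted p under 0.05 there.

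Of the cationic carriers that bring arginine in, Slc7a2 and Slc7a1 rose in both genotypes, and Slc7a3, CAT3, was near background and not called (0.08 in knockout and 0.05 in wild type). Slc7a2, CAT2, the carrier known to supply arginine for nitric oxide synthesis in activated macrophages, read 13522, 13129 and 12529 with LPS and 5602, 3537 and 5728 untreated in knockout cells. In wild-type cells it read 13323, 13276 and 12807 with LPS and 6504, 5784 and 6072 untreated. Both LPS groups lay far above both untreated groups, by 1.43 in knockout (SE 0.15, adjusted p = 1.64e-05) and 1.10 in wild type (SE 0.15, adjusted p = 1.69e-04), and the LPS-treated genotypes differed by -0.01 (95% interval -0.33 to 0.32).

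Slc7a1, CAT1, the constitutive cationic carrier of most cells, read 797.7, 1375 and 562.2 with LPS and 396.8, 591.6 and 313.7 untreated in knockout cells. In wild-type cells it read 1004, 728.8 and 859.9 with LPS and 382.5, 384.5 and 340.7 untreated. The wild-type groups were apart, whereas the knockout groups overlapped, with untreated replicate 2 (591.6) above LPS replicate 3 (562.2). Replicate 2 was the highest of both knockout groups, and within each replicate number the LPS array was the higher. The rise was 1.02 in knockout (SE 0.29, adjusted p = 0.0136) and 1.22 in wild type (SE 0.29, adjusted p = 0.00779), and the knockout call was lost without knockout untreated replicate 3 (0.81, adjusted p = 0.0584) and in the fit on the 6 knockout arrays alone (1.02, adjusted p = 0.056). It was kept with the replicate number as a block, over all arrays or among the knockout arrays alone. Slc7a4, a relative of these carriers without an established transport function, fell slightly in both genotypes, by 0.31 in knockout and 0.24 in wild type, the wild-type call being lost in 6 of 12 fits that left out 1 array. With arrays centred on the 75th percentile neither was called (-0.03 in knockout and -0.05 in wild type). Among 9 measured enzymes of arginine and polyamine metabolism, 3 rose and 2 fell in each genotype. Of all expressed genes 23.3% rose and 35.9% fell in knockout, and 12.9% rose and 28% fell in wild type. The enzymes that rose included Nos2, the inducible nitric oxide synthase (3.73 in knockout and 3.55 in wild type), and Odc1, the first enzyme of polyamine synthesis (1.54 and 1.96). On the knockout arrays Odc1 read 999.4, 292.2 and 1705 with LPS, against 254.6, 274.5 and 288.1 untreated, so replicate 2 hardly rose.

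Sodium-coupled carriers of glutamate and glutamine moved in both directions. Slc1a2, the glutamate carrier GLT-1 best known from astrocytes, read 1699, 484.9 and 1311 with LPS and 128.1, 98.94 and 91.16 untreated in knockout cells. In wild-type cells it read 905.4, 1083 and 420.7 with LPS and 96.32, 96.11 and 89.09 untreated. The untreated arrays lay at the edge of background, with 1 of 3 in knockout and all 3 in wild type at or under the threshold of 96.7. Every LPS array lay above all of them, and the LPS arrays varied widely among themselves, with knockout replicate 2 and wild-type replicate 3 the lowest. Counting arrays under the threshold at the threshold, the geometric mean with LPS was at least 9.59-fold higher in knockout and at least 7.7-fold higher in wild type. These bounds hold for the means of these arrays, and the lowest LPS arrays (484.9 in knockout and 420.7 in wild type) lay below those means. The fitted differences, 3.29 in knockout (adjusted p = 7.62e-05) and 2.99 in wild type (adjusted p = 2.34e-04), rest on that dim baseline, and knockout minus wild type with LPS was 0.46 (95% interval -0.46 to 1.38).

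Slc1a5, ASCT2, an exchanger of glutamine and other neutral amino acids, fell. It read 313.9, 478.1 and 320.3 with LPS and 791.4, 1069 and 638.8 untreated in knockout cells, and 264.2, 294.5 and 329.7 with LPS and 909.2, 747.9 and 986.7 untreated in wild-type cells. The groups were apart in both genotypes, with a response of -1.16 in knockout (SE 0.20, adjusted p = 6.61e-04) and -1.57 in wild type (SE 0.20, adjusted p = 1.20e-04). Slc38a1, SNAT1, a glutamine carrier, read 2348, 2395 and 2784 with LPS and 1417, 1360 and 1218 untreated in knockout cells, and 2705, 2313 and 2453 with LPS and 1490, 1406 and 1497 untreated in wild-type cells. It rose by 0.91 in knockout (adjusted p = 1.23e-05) and 0.76 in wild type (adjusted p = 6.80e-05), and its LPS arrays lay above its untreated arrays in both genotypes. Slc38a2, SNAT2, whose transcript is known to rise when amino acids are short, was called in knockout alone (0.38, adjusted p = 0.00405, against 0.22 in wild type, adjusted p = 0.0772), and the difference between these responses was not called. Slc38a3 and Slc38a8, both dim, were likewise called in knockout alone, at 0.26 and 0.31. The call on Slc38a3 was lost without knockout untreated replicate 2 (0.20), and that on Slc38a8 without knockout LPS replicate 1 or 3 (0.29 each) or untreated replicate 3 (0.27). Both calls were also lost with quantile normalization and with arrays centred on the receptor genes' median. That centring also lost the call on Slc38a2 (0.31, adjusted p = 0.0978), and the fit on the 6 knockout arrays that on Slc38a3 (0.26, adjusted p = 0.0596).

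Carriers of lysosomes and other internal membranes, Slc36a1, Slc36a4, Slc38a7, Slc38a9 and Slc38a10, fell in both genotypes. Slc36a1, PAT1, which exports small neutral amino acids with protons from lysosomes, read 340.3, 383 and 260.8 with LPS and 1850, 1883 and 1988 untreated in knockout cells. In wild-type cells it read 411.8, 312.2 and 502.4 with LPS and 1801, 1741 and 1426 untreated. No LPS array reached the lowest untreated array, and the response was -2.56 in knockout (SE 0.17, adjusted p = 8.99e-07) and -2.04 in wild type (SE 0.17, adjusted p = 6.41e-06). Its genotype difference with LPS was not called (-0.31, 95% interval -0.69 to 0.07).

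Slc36a4, PAT4, a proton-independent relative with high affinity for proline and tryptophan, read 574.7, 589.2 and 469.5 with LPS and 1573, 1786 and 1497 untreated in knockout cells, against 928, 697.2 and 1019 with LPS and 1678, 1692 and 1550 untreated in wild-type cells. Its response was -1.58 in knockout (SE 0.14, adjusted p = 4.48e-06) and -0.91 in wild type (SE 0.14, adjusted p = 3.53e-04), and the difference of responses was not called (-0.66, adjusted p = 0.158). With LPS the knockout arrays were all below the wild-type arrays, at -0.68 (adjusted p = 0.0113), a call lost without wild-type LPS replicate 1 (-0.64) or 3 (-0.57). Slc38a7, SNAT7, a lysosomal glutamine exporter, read 422.8, 501.7 and 423.7 with LPS and 1044, 1020 and 1055 untreated in knockout cells, against 673.8, 513.4 and 695.9 with LPS and 1131, 1170 and 1088 untreated in wild-type cells. It fell by 1.21 in knockout and 0.86 in wild type, and the LPS-treated groups differed by -0.47 (adjusted p = 0.024), a call lost without knockout LPS replicate 1 or 3 (-0.43 each) or wild-type LPS replicate 1 (-0.42) or 3 (-0.39). The lowest wild-type array with LPS, replicate 2, lay just above the highest knockout array.

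Slc38a9, the lysosomal arginine sensor that signals to mTORC1, fell by 0.95 in knockout (adjusted p = 0.00131) and 0.92 in wild type (adjusted p = 0.00246). Its dimmer probe set, which was not kept, moved much less. On the log2 scale that probe set read 7.56, 7.49 and 7.50 with LPS and 7.70, 7.78 and 7.71 untreated in knockout cells. In wild-type cells it read 7.66, 7.63 and 7.47 with LPS and 7.95, 7.80 and 7.70 untreated. Slc38a10, a less studied relative, fell by 0.91 and 0.81. Among 26 genes of lysosomal amino acid sensing and mTORC1, 18 fell and 2 rose in knockout cells, and 13 fell and 1 rose in wild-type cells, with medians of -0.59 and -0.32. Of the 26, 24 were expressed, and all expressed genes had medians of -0.07 and -0.05, with 35.9% lower in knockout and 28% lower in wild type. Sesn1, an inhibitor of mTORC1, showed the largest fall of the list (-3.00 in knockout and -2.56 in wild type), followed in knockout by Deptor, an mTOR inhibitor (-1.75, and -2.05 in wild type), and Lamtor4, a subunit of the lysosomal Ragulator anchor (-1.64, and -1.57 in wild type). Among 15 measured amino acid and peptide carriers outside the rule, 5 rose and 5 fell in knockout cells, and 2 rose and 5 fell in wild-type cells. Of all expressed genes 23.3% rose in knockout and 12.9% in wild type. The carriers that fell included Ctns, the cystine exporter, at -2.13 in knockout and -1.89 in wild type, and Slc15a4, a histidine and peptide carrier, at -1.55 and -1.21. Slc15a3, a related lysosomal carrier, rose by 1.10 in knockout and 1.41 in wild type. Of 6 B cell markers, Cd79b and Cd22 fell with LPS in both genotypes (-1.27 and -1.36 in knockout, -0.98 and -0.77 in wild type), while Cd79a, Ms4a1, Pax5 and Blk were not called, with Pax5 at 0.52 and Ms4a1 at 0.37 in knockout. Their summed intensity was 932.4 to 1343 with LPS and 1540 to 1919 untreated in knockout cells, and 1015 to 1240 with LPS and 1314 to 1973 untreated in wild-type cells, and their part in the falls was not tested.

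Slc43a2 fell more than any other expressed member. It encodes LAT4, a facilitated carrier that lets branched-chain amino acids, phenylalanine and methionine leave cells. It read 193.9, 217.5 and 176.3 with LPS and 2116, 2612 and 1794 untreated in knockout cells, against 136.1, 157.4 and 118.4 with LPS and 1918, 1928 and 1739 untreated in wild-type cells. The groups were several-fold apart on every array, at -3.46 in knockout (SE 0.14, adjusted p = 2.81e-08) and -3.77 in wild type (SE 0.14, adjusted p = 1.37e-08). With LPS the knockout level was higher by 0.52 (SE 0.14, adjusted p = 0.0445), a call lost in 9 of 12 fits that left out 1 array. The 12 values ran from 0.42 to 0.62, with the highest adjusted p, 0.183, without wild-type LPS replicate 3, and the call was kept only without knockout untreated replicate 2 or 3 or wild-type LPS replicate 2. Slc43a3, the nucleobase carrier of the same family, read 232.1, 185.5 and 269.3 with LPS in knockout, against 130.2, 146.3 and 109 with LPS in wild type, a difference of 0.83 (adjusted p = 0.0143), and it was called for LPS in neither genotype. Its knockout response, 0.44 (adjusted p = 0.0562), was called with quantile normalization (0.63, adjusted p = 0.0121), array weights (0.60, adjusted p = 0.0117), centring on the median (0.46) or the 75th percentile (0.72), and among expressed genes alone. The genotype call was lost without knockout LPS replicate 3 (0.70) or wild-type LPS replicate 1 (0.84) or 3 (0.71).

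Only Slc6a6 and Slc6a8 of the 12 expressed Slc6a members were called for LPS, and both fell. With the replicate number as a block among the knockout arrays, Slc6a4 was also called, higher in knockout (0.26, adjusted p = 0.0434). The wild-type response of Slc6a20a (0.25, adjusted p = 0.0661) was called with centring on the median (0.31) or the 75th percentile (0.44). It was also called with quantile normalization (0.29), array weights (0.30) and the fit on the 6 wild-type arrays (0.25). Slc6a6, the taurine carrier, read 2508, 2930 and 2809 with LPS and 5052, 4951 and 4851 untreated in knockout cells, and 2395, 2268 and 2381 with LPS and 5268, 5421 and 5041 untreated in wild-type cells. Its groups were apart, and it fell by 0.85 in knockout (adjusted p = 3.54e-06) and 1.16 in wild type (adjusted p = 5.97e-07). Slc6a8, the creatine carrier, fell by 0.38 in knockout (adjusted p = 0.00262) and 0.66 in wild type (adjusted p = 8.19e-05), and with arrays centred on the 75th percentile the knockout value was -0.10 and not called (adjusted p = 0.322). Slc6a9, the glycine carrier GlyT1, read 759.5, 1868 and 714.4 with LPS and 977.6, 2204 and 735 untreated in knockout cells, against 520.1, 379.1 and 535.7 with LPS and 948.8, 823.5 and 688 untreated in wild-type cells. Knockout replicate 2 was the highest in both treatments, the array that also stood apart for Timd4, and no comparison of Slc6a9 was called (knockout minus wild type with LPS 1.09, adjusted p = 0.132). Its wild-type groups were apart, at -0.78 with LPS (adjusted p = 0.185), and that response was called in the fit on the 6 wild-type arrays (adjusted p = 0.00713) and with array weights (-0.64, adjusted p = 0.033). Slc6a12, the betaine and GABA carrier, was likewise not called (knockout minus wild type with LPS -0.82, adjusted p = 0.144), except with array weights (-0.96, adjusted p = 0.0183).

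**Figure D2:**
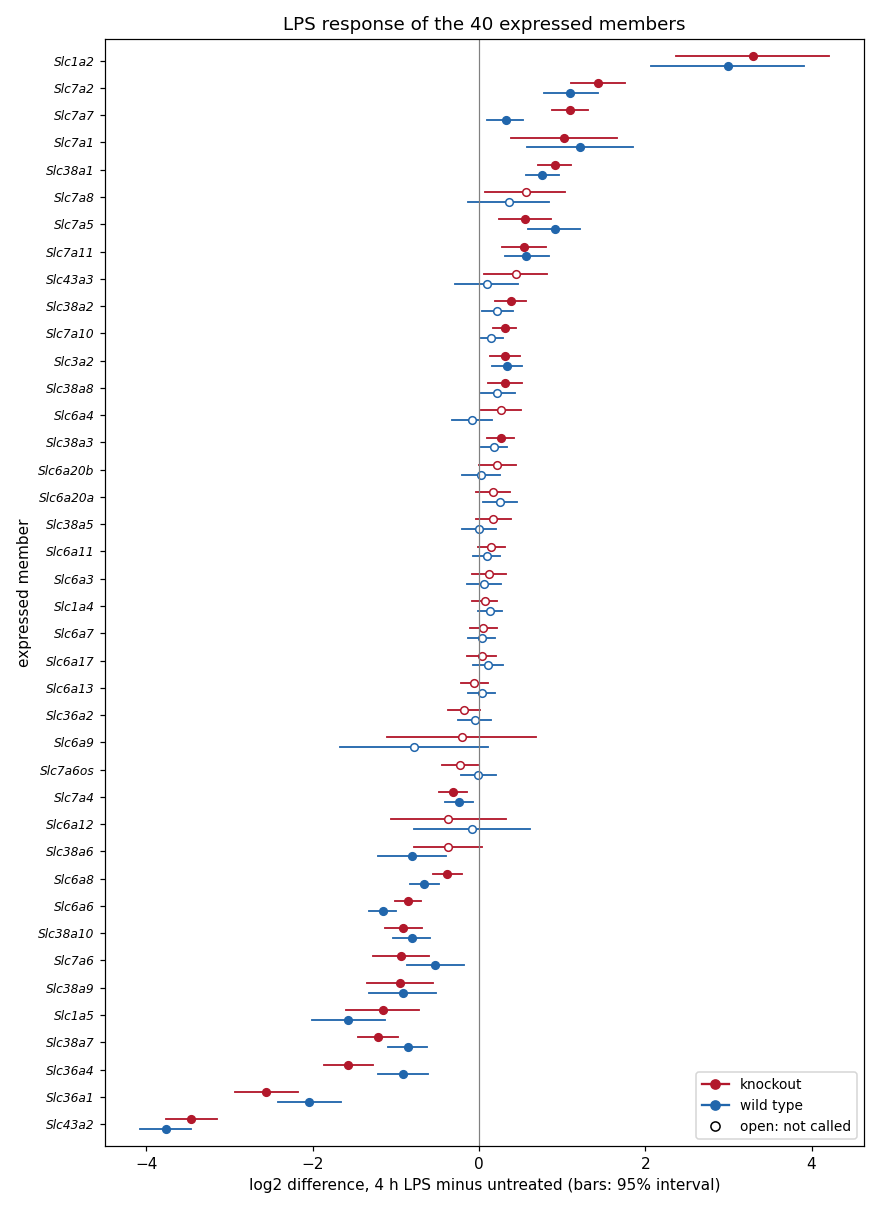
Log2 LPS response of the 40 expressed members, with a row per member and the knockout value above the wild-type value in each row. Bars are 95% intervals of the limma fit, and filled points are called. Slc43a2 has the lowest values (-3.46 in knockout and -3.77 in wild type), and the highest points, those of Slc1a2, are set against untreated arrays at the edge of background.

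Between the genotypes, 9 of the 40 expressed members differed with LPS, 6 higher and 3 lower in knockout, and 0 untreated. Among all expressed genes 4.81% were higher and 7.51% lower in LPS-treated knockout cells, and over all tested genes 3.28% and 4.87%. Untreated, 0.0752% of all genes were called by limma, and 7 of the 40 members had an unadjusted p under 0.05. Besides Slc7a7, Slc43a2, Slc43a3 and Slc6a8 (0.36, adjusted p = 0.0174, lost without knockout LPS replicate 2 or wild-type LPS replicate 3), the higher members were Slc38a6, a member of the sodium-coupled neutral family without a settled substrate, and Slc6a4, the serotonin carrier. Slc38a6 read 892.2, 1440 and 1370 with LPS in knockout, against 686.8, 500.1 and 706 in wild type. No knockout array lay below a wild-type array, and the difference was 0.95 (SE 0.19, adjusted p = 0.0103). Slc38a6 fell with LPS in wild type (-0.81, adjusted p = 0.00655) and was not called in knockout (-0.37, adjusted p = 0.12, or 0.0312 with a replicate block among the knockout arrays), but the difference of those responses was not called (0.43, adjusted p = 0.532). Slc6a4 read 113.4, 114.3 and 152.6 in knockout against 84.54, 90.82 and 101.8 in wild type with LPS, close to the background threshold (0.45, adjusted p = 0.0316), and the call was lost without knockout LPS replicate 3 (0.31) or wild-type LPS replicate 1 (0.38) or 2 (0.44). The lower members were Slc36a4, Slc38a7 and Slc7a6os (-0.37, adjusted p = 0.0422), an opposite-strand gene whose call was lost in 8 of 12 fits that left out 1 array.

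Of the 8 measured macrophage markers, 1 was called higher and 1 lower in LPS-treated knockout cells, and 1 was called for the difference of responses. Mertk of that list read 4046, 4704 and 4302 with LPS in knockout, against 1511, 2088 and 1780 with LPS in wild type. Adgre1 went the other way, at 4799, 5272 and 5475 with LPS in knockout, against 6442, 6430 and 6977 in wild type. Over the lists of markers of other cells, few single markers were called between the LPS-treated genotypes. Of dendritic cell, neutrophil, mast cell, B cell, NK cell, eosinophil, mesothelial and large peritoneal macrophage markers 0 were called by limma, Cd3e of the T cell list was higher (0.29, adjusted p = 0.0337), and Dcn of the fibroblast list was lower (-0.93, adjusted p = 0.0165). The summed intensities of dendritic cell and neutrophil markers lay apart all the same, largely through a single bright gene. Dendritic cell markers (4 of 5 expressed, Xcr1 near background) summed to 920.7 to 3099 in knockout, against 3413 to 4661 in wild type (Ccr7 alone 2580, 494.9 and 1863 against 2944, 3661 and 4202), with a list median of 0.00. Neutrophil markers (2 of 7 expressed) summed to 2863 to 3644 in knockout, against 3682 to 4613 in wild type (Mmp8 alone 2268, 2914 and 2575 against 3837, 3033 and 3979), with a list median of 0.05. Large peritoneal macrophage markers (5 of 5 expressed) summed to 10077 to 10683 in knockout and 7461 to 10133 in wild type, which overlap, with a list median of 0.31. For mast cell markers (6 of 8 expressed) the sums overlapped, at 1966 to 7677 in knockout and 7579 to 8831 in wild type, and were mostly Hdc, which was itself higher on LPS arrays. The mast cell list median was 0.33, and Mcpt4 read 265.4, 86.2 and 648.4 in knockout, against 71.72, 105.5 and 100.6 in wild type. Their part in the 9 genotype differences was not tested.

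**Figure D3:**
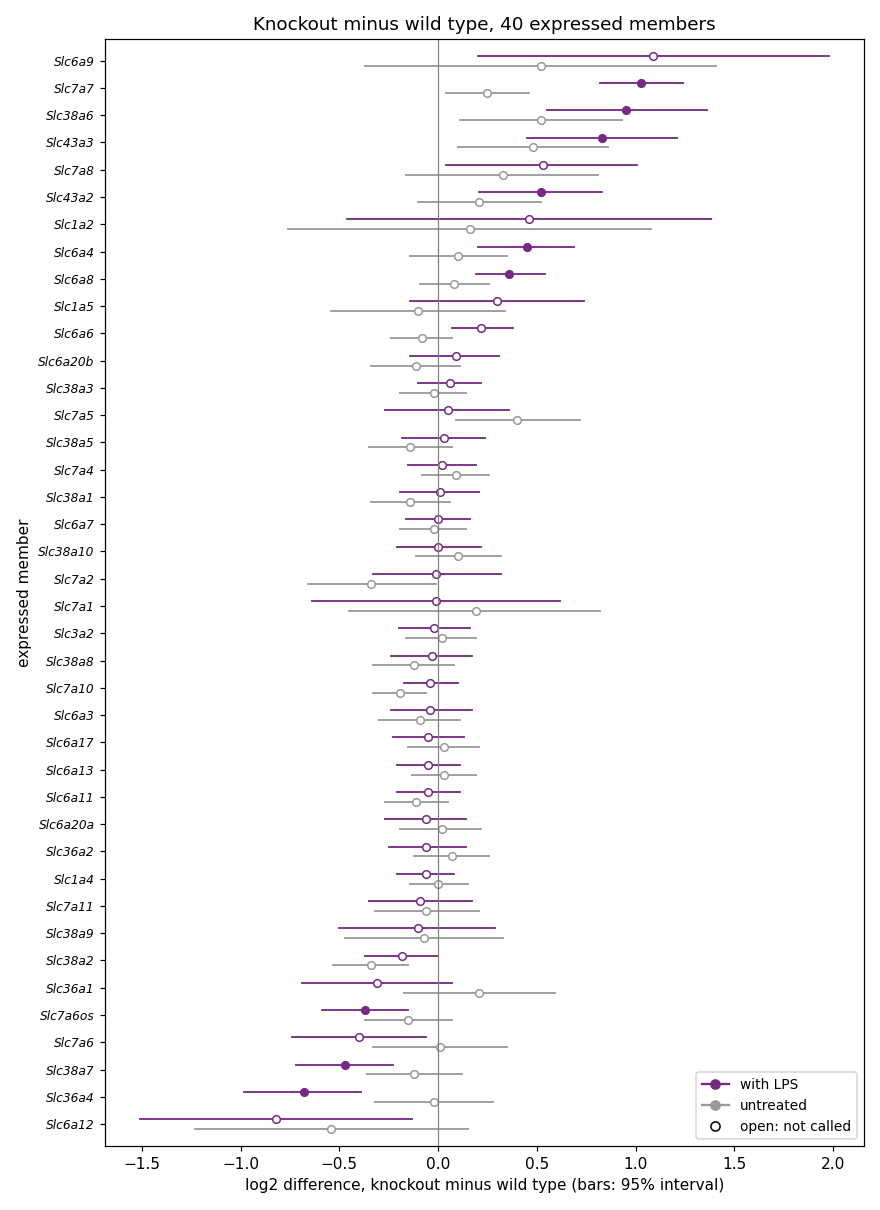
Log2 difference of knockout minus wild type for the 40 expressed members, with LPS drawn above untreated in each row. Bars are 95% intervals, and filled points are called. With LPS, 9 members are called, of which Slc7a7 (1.03) is the only one at 1 or more on the log2 scale, and untreated none is.

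The 24 near-background members ran from 17.48 to 108.8 in intensity on single arrays. In knockout cells 10 of them were called higher with LPS, at 0.22 to 0.43, and 0 lower. Over all tested genes 21.9% were called higher and 23.8% lower there. Of the 24 members, 22 lay above 0, with a median of 0.22. Of these 10 calls, 1 was left with quantile normalization and 1 with arrays centred on the receptor genes' median, 7 were lost on leaving out some 1 array, and 1 was kept in every fit. The 10 were Slc1a1, Slc1a3, Slc1a6, Slc3a1, Slc43a1, Slc6a5, Slc6a15, Slc6a16, Slc6a21 and Slc7a15. In wild type 21 of 24 also lay above 0, with a median of 0.08. Only Slc43a1 was called (0.31, adjusted p = 0.0368), beside 9.53% of all tested genes called higher. That call was lost in 7 of 12 fits that left out 1 array and with a replicate block (adjusted p = 0.0579). It was also lost with quantile normalization (0.25, adjusted p = 0.0733) and with receptor centring (0.19, adjusted p = 0.288). The receptor genes used as background were called higher in 6.03% of cases in knockout (median 0.08) and 3.02% in wild type (median 0.10), and lower in 0.0838% and 0.168%. Most of the 24 members were brighter than the receptor median, so these shares are not those of equally bright genes. The receptor median was highest on knockout replicate 2, at 35.7 with LPS and 35.63 untreated, against 29.06 to 33.36 on the other 10 arrays.

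**Figure D4:**
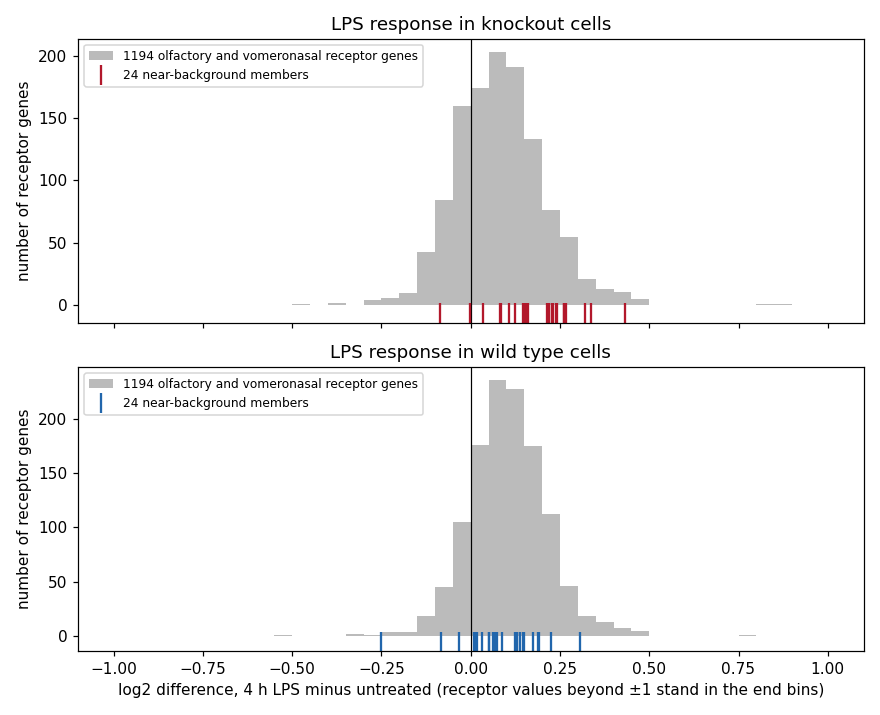
Histogram of the log2 LPS response of the 1194 receptor genes, knockout above wild type, with ticks for the 24 near-background members. In knockout, 22 of the 24 ticks lie above 0, and in wild type 21 do.

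The amino acid starvation response, driven by the factor ATF4, was read from 20 target genes. In knockout cells 5 rose and 3 fell (median 0.10), and in wild-type cells 5 rose and 0 fell (median 0.07). The share that rose in knockout is near the 21.9% of all genes and 23.3% of expressed genes that did, and in wild type the shares are 9.53% of all genes and 12.9% of expressed genes. Atf4 itself was 0.36 in knockout (adjusted p = 0.033) and 0.36 in wild type (adjusted p = 0.0514). Asns, asparagine synthetase, rose in wild type (1.31, adjusted p = 0.0173) and was not called in knockout (0.73, adjusted p = 0.115), a difference of responses that was not called either, and Mthfd2, a mitochondrial folate enzyme, rose by 0.77 in knockout and 0.92 in wild type. In the glutathione and NRF2 list, 13 of 15 were measured, and 1 rose and 4 fell in knockout, with 1 and 1 in wild type. Txnrd1, thioredoxin reductase, rose by 0.96 in both genotypes, and Gsr, glutathione reductase, fell by 1.00 in knockout and was not called in wild type (-0.04). No gene of this list, Gsr included, was called for the difference of responses. Of 15 enzymes measured for glutamine, glutamate, tryptophan, serine and branched-chain amino acids, 3 rose and 5 fell in knockout, and 1 rose and 4 fell in wild type, with Glul, glutamine synthetase, at -1.65 and -1.82. Beside the falls of these lists, 35.9% of expressed genes fell in knockout and 28% in wild type (23.8% and 18.5% of all genes).

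Likeness to Slc7a11 was described by the correlation of the 4 group means. The most alike of the 12412 other expressed genes were Mir149, Itga5 and Tab3, each at 0.9999 or above, and 378 genes lay above 0.99. For Slc43a2 they were Tnfaip8l2, Erlec1 and Pde4a, and 678 genes lay above 0.99. With 4 points that share the same 12 arrays, such values are common.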

How the data were processed

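Affymetrix whole-transcript arrays gave 1 linear intensity per probe set, which the authors deposited. The submitters' processing notes name RMA and Affymetrix Expression Console 1.1, without settings. Of 35556 probe sets, 21789 had 1 gene symbol, 1621 several and 12146 none in the platform annotation. Of those with 1 symbol, 21698 were found in the RefSeq table by Entrez identifier and 0 symbols changed. Where a gene had more than 1 probe set (999 genes), the brightest by mean was kept. No array pair was identical (0 pairs).

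Log2 of the deposited intensity, with no pseudocount, was fitted with limma 3.58.1 in R 4.3.3 (lmFit and eBayes, two-sided), with 4 group means over 12 arrays, 8 residual degrees of freedom and Benjamini-Hochberg adjustment over 19938 genes. Standard errors and 95% intervals come from that fit, and the number of arrays limits the precision. The script was tested on simulated data. No replicate block was used. Same-numbered arrays deviated together between the knockout groups (correlations 0.379, 0.595 and 0.495, against at most 0.124 for other numbers). The labels state no pairing, and correlations among 3 arrays per group do not establish it. Between the wild-type groups the correlations were -0.101, 0.160 and 0.410, with only replicate 3 well above its other numbers (at most -0.072). Between genotypes same-numbered arrays reached 0.089 at most. All expressed members are named, with every array's value for those called with a log2 difference of 1 or more, for 6 chosen transporters, and for a few other members chosen after their values were seen. Near-background members are named where called. Members, lists and the motifs were chosen with earlier results of these data known. Alternatives were other array scalings, filters, offsets, array weights, replicate block, probe set means, fits on the 6 arrays compared, stricter thresholds and leaving out each array. Slc38a1 and Slc38a9 kept their calls with the mean of their probe sets.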

Additional observations from a re-analysis of the deposited data

Results flagged for a closer look

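The LPS response of Slc7a7, the arginine and lysine exporter y+LAT1, differed between genotypes by 0.78 on the log2 scale in the test of the difference itself (SE 0.14, limma adjusted p = 0.0287). Knockout cells read 1684, 1593 and 1698 with LPS and 748, 804.6 and 777.9 untreated, against 784.2, 868.6 and 784.8 with LPS and 745.7, 663.3 and 560.6 untreated in wild-type cells. The value was higher in knockout in each of the 12 fits that left out 1 array, and its call was lost in 7 of them. No explanation was tested.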

How the results depend on the processing

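No alternative turned the direction of any called member. Of the 53 called differences of expressed members, 32 were called in every fit, 14 lost their call in at least 1 fit leaving out an array and 21 in at least 1 other setting. For the knockout LPS response, the 33 of 64 members called became 55 with arrays centred on the 75th percentile, 19 with arrays centred on the receptor genes' median (added after seeing the data), 20 at adjusted p under 0.01 and 9 at 2-fold or more, and ran from 26 to 33 leaving out 1 array. Quantile normalization gave 24 members, 12 higher and 12 lower, where the deposited scaling gave 22 and 11, and for the wild-type response 9 higher and 11 lower, against 9 and 12. Centring on the median gave 24 higher and 11 lower in knockout, and 18 and 11 in wild type. For the wild-type response, 21 became 43 with 75th-percentile centring, 34 with array weights and 7 at 2-fold or more, and ran from 17 to 22. For knockout against wild type with LPS, 9 became 1 with only the 6 arrays compared (Slc7a7), 1 at adjusted p under 0.01 and 1 at 2-fold or more, and ran from 3 to 9, with 3 without wild-type LPS replicate 1 or 3. For the difference of responses, 1 became 2 with array weights, 0 with receptor centring, 0 at adjusted p under 0.01 and 0 at 2-fold or more, and ran from 0 to 2. Centring on the 75th percentile moved the all-gene median response to 0.35 in knockout and 0.23 in wild type, and the expressed members called then split 23 higher and 9 lower in knockout, and 17 and 10 in wild type. Receptor centring gave 7 higher and 11 lower in knockout, and 6 and 12 in wild type. A replicate block gave 32 and 19 members called for the knockout and wild-type responses, 8 for knockout against wild type with LPS and 1 for the difference, and lost Slc7a4 in wild type (-0.24, adjusted p = 0.0621) and Slc7a6os (-0.37, adjusted p = 0.0501). Among the knockout arrays alone, where same-numbered arrays deviated together, the replicate block gave 37 members called for the LPS response. Among expressed members it added Slc38a6 (-0.37, adjusted p = 0.0312), Slc7a8 (0.56, adjusted p = 0.0477) and Slc6a4 (0.26, adjusted p = 0.0434). The causes of these changes were not tested. Signal near background limits the 24 dim members and the members just above the threshold.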
